A study of Mus musculus with 6 samples.

Results

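The placental gene clusters described here are rodent gene families that multiplied by local duplication and are used mainly in the placenta and the decidua, the pregnant lining of the uterus. They were measured in a tissue that is neither, the mandibular arch of the mouse embryo. The members were the probe sets that the array's annotation assigns to a single gene of 6 kinds: prolactin family genes with a placental name (Prl, number, letter, number), pregnancy-specific glycoproteins (Psg and a number), 8 placental cathepsins, the Serpinb9 genes with a letter b to g, the homeobox genes Rhox6 and Rhox9, and the single genes Cyp11a1, Slc6a2 and Trap1a. That gave 57 probe sets of 41 genes, out of 45037 probe sets and 18193 genes. By kind these were 21 probe sets of 17 Prl genes, 10 of 8 cathepsins, 5 of 4 Serpinb9 genes, 11 of 7 Psg genes, 2 of 2 Rhox genes and 8 of the 3 single genes. The genes were grouped after it had been seen that many of them were high on 1 array, so that contrast describes the members and is not tested.

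Expression was measured on 6 Affymetrix arrays of the whole mouse genome at embryonic day 10.5 in C57BL/6 mice. 3 arrays carried RNA of mandibular arches labelled Tbx1-/-, homozygous for a null allele of a T-box transcription factor gene, and 3 carried RNA of arches labelled Tbx1+/+, wild type. Arches of 3 embryos were pooled for each genotype, and since it is not stated whether every array had a pool of its own, p-values here measure only the spread between these arrays, which may be technical. Each array was made from amplified cDNA, starting from 100 ng of total RNA, and its values are log2 expression per probe set, in which a difference of 1 is a 2-fold difference. Which stretch of Tbx1 the null allele lacks is not stated by the labels.

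Labelled-null replicate 3 stood apart from the other 5 arrays. It held 436 of the 45037 probe sets over 1 above the average of the others, against 10 to 63 on each other array, while the array medians lay within 6.08 to 6.15. The Tbx1 probe set read 7.59, 7.50 and 7.30 on the labelled-null arrays, against 6.93, 7.31 and 6.92 on the wild-type arrays (limma, difference 0.41, SE 0.15, unadjusted p = 0.0215, adjusted p = 1.00), so the labelled-null values were not the lower ones. Whether it lies in the deleted part is not known, so it does not check the labels. The 15 mandibular arch markers with a probe set read above 4 on every array, and 0 of them deviated by more than 1 on any array. Alx4, a homeobox gene of the anterior face, was the dimmest of these. Dlx5, a homeobox gene of the lower jaw, read 11.10, 11.43 and 11.35 on the labelled-null arrays, against 11.87, 11.32 and 11.29 on the wild-type arrays.

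The prolactin family genes outside the pituitary hormone itself code for secreted hormones that trophoblast and decidual cells release into the mother and the placenta, where several of them act on vessels, blood cells and uterine natural killer cells. The placental cathepsins are lysosomal cysteine proteases related to cathepsin L, and the Serpinb9 genes are relatives of Serpinb9, the inhibitor of granzyme B. In bulk RNA, fewer cells of a type and less RNA per cell cannot be told apart.

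On labelled-null replicate 3, 26 of the 57 member probe sets, belonging to 21 of the 41 genes, lay over 1 above the average of the other 5 arrays, against 0.968% of all probe sets on this array. More than 2 above lay 22 of them, against 0.397% of all, and 0 lay more than 1 below, against 0.0355% of all. These shares restate how the families were chosen. The 26 probe sets read 4.08 to 13.28 on this array and had a median deviation of 5.88, while the median deviation over all 57 was 0.56. The families differed: 10 of 21 Prl probe sets, 2 of 10 cathepsin, 5 of 5 Serpinb9, 3 of 11 Psg, 2 of 2 Rhox and 4 of 8 sets of the single genes were over 1. Members took 8 of the 10 largest deviations on this array, 13 of the 20 largest and 21 of the 100 largest.

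**Figure D1:**
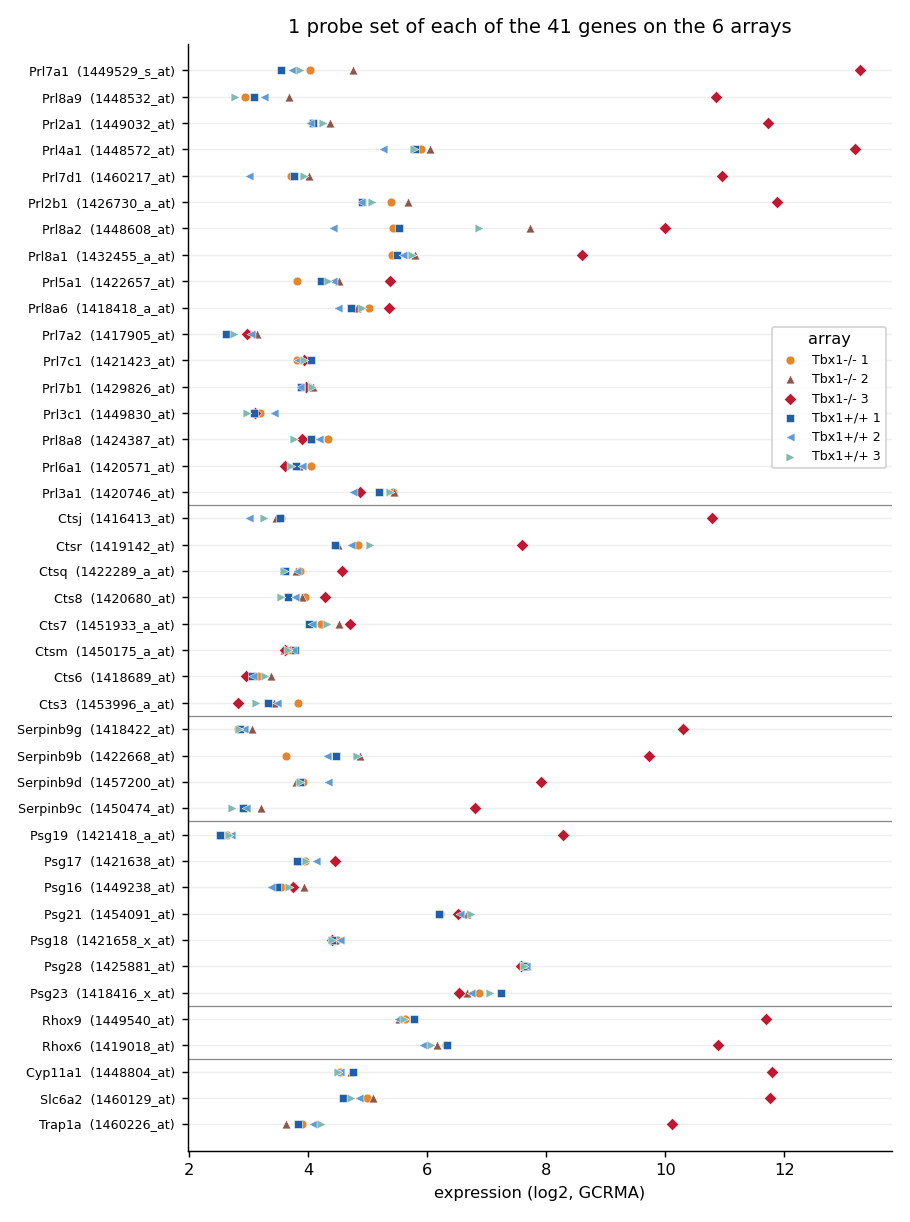
Log2 expression of 1 probe set of each of the 41 genes, that with the largest deviation, on each of the 6 arrays (x axis, log2). Each row is a gene and each point an array. The points of labelled-null replicate 3 reach 13.28 for Prl7a1, while the other 5 arrays lie close together for most genes and spread over 3.32 for Prl8a2.

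On the other arrays almost nothing of this kind was seen. Over 1 lay 0 of the 57 probe sets on labelled-null replicate 1 (0.14% of all probe sets), 1 on labelled-null replicate 2 (0.0533%), and 0 each on wild-type replicates 1, 2 and 3 (0.0222%, 0.06% and 0.0289%). The single exception was Prl8a2. Since labelled-null replicate 3 pulls up the mean that the other arrays are set against, the same was done without it. Then Prl8a2 was over 1 on labelled-null replicate 2 (2.17, background 0.0711%) and on wild-type replicate 3 (1.10, background 0.0289%), and 0 members were over 1 on the other 3 arrays (backgrounds 0.153%, 0.0155% and 0.0622%). Of the 57 probe sets, 21 were under 4 on all 5 of these arrays, near the background of the assay, and 8 of the 26 high ones were among them, so the size of their deviations rests on dim values.

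**Figure D2:**
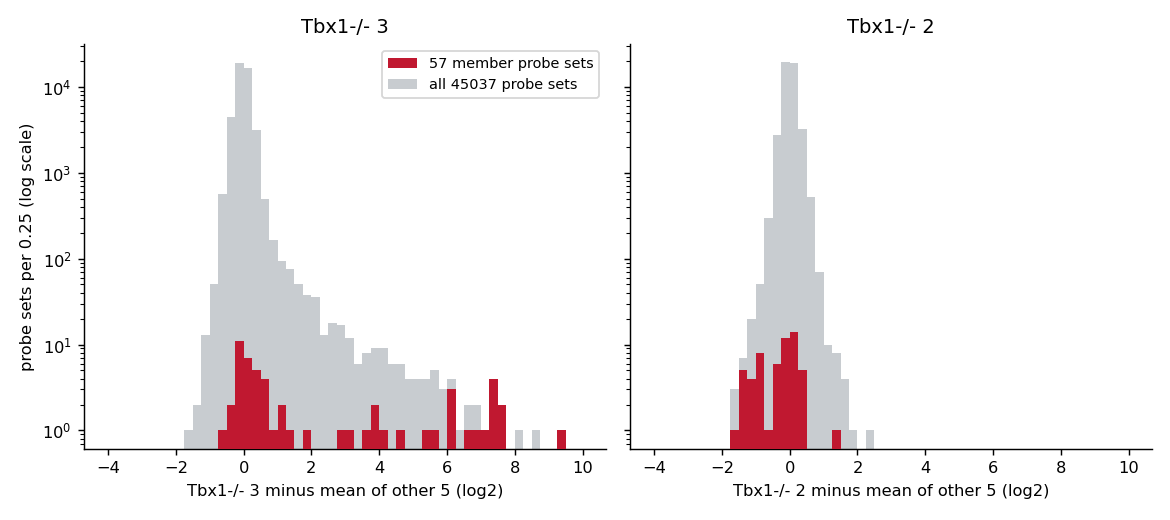
Number of probe sets (y axis, log scale) by their value on an array minus the mean of the other 5 arrays (x axis, log2), for the 57 member probe sets and for all 45037. On labelled-null replicate 3 the members reach 9.30, while on labelled-null replicate 2 the highest member lies at 1.28.

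Prl7a1 codes for a prolactin-like hormone that acts on megakaryocytes, the cells that shed platelets. The probe set that reached furthest read 4.03, 4.76 and 13.28 on labelled-null replicates 1, 2 and 3, against 3.53, 3.73 and 3.87 on the wild-type arrays. Labelled-null replicate 3 was 9.30 above the mean of the others, the largest deviation of any probe set on that array. The other Prl7a1 sets did not follow: the first read 4.69, 4.27 and 4.68 on the labelled-null arrays, against 4.20, 4.26 and 4.14 on the wild-type arrays, and the second was likewise dim, with a deviation of 0.41. By its suffix (_s_at) the bright set has probes that can match several genes, and by its suffix (_x_at) the first dim set shares some probes with other sequences, so signal from near-identical family members cannot be told apart by such sets.

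Prl7a2, the neighbour of Prl7a1 in the same subfamily, was flat. It read 2.98, 3.14 and 2.97 on the labelled-null arrays, against 2.62, 3.03 and 2.76 on the wild-type arrays. Prl8a9 and Prl8a8, both of the prolactin-like protein C group, formed a like pair. Prl8a9 read 2.93, 3.68 and 10.85 on the labelled-null arrays, against 3.09, 3.26 and 2.76 on the wild-type arrays, a deviation of 7.71 for labelled-null replicate 3. Prl8a8 read 4.32, 4.04 and 3.89 on the labelled-null arrays, against 4.04, 4.18 and 3.76 on the wild-type arrays, so all 6 arrays lay within a narrow band. The start regions of these pairs are shown because the genes are close relatives, lie in the same cluster and differed in deviation. They come from RefSeq on GRCm38.p6, run from 250 bases before to 50 bases after the annotated start, and are written 5′ to 3′ along the gene. Capitals mark matches on either strand. The GATA factor motif was searched as AGATAA, also with T as its first letter or G as its last. The AP-1 motif was searched as TGANTCA. Of the TATA box, the forms TATAAA and TATATA were searched, the second also together with AGGT where this follows after a gap of 2 bases.
Prl7a1 (chr13:27642444-27642743, minus strand): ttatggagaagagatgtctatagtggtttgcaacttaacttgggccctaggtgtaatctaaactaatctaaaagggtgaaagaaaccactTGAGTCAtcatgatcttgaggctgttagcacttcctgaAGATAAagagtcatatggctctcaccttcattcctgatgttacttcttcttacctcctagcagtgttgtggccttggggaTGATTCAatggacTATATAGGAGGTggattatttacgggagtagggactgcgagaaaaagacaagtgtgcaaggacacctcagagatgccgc
Prl7a2 (chr13:27667987-27668286, minus strand): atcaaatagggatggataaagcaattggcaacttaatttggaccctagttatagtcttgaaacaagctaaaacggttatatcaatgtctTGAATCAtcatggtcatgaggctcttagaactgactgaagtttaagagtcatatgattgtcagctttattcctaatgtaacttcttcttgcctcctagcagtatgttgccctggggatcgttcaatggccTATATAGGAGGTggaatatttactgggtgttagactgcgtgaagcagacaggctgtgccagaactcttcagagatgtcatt
Prl8a9 (chr13:27564557-27564856, minus strand): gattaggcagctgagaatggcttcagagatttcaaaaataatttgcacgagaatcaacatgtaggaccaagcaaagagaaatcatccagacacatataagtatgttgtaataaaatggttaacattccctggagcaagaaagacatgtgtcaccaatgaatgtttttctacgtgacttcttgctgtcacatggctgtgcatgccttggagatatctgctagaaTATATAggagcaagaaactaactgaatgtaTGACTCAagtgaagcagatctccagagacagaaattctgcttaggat
Prl8a8 (chr13:27513168-27513467, minus strand): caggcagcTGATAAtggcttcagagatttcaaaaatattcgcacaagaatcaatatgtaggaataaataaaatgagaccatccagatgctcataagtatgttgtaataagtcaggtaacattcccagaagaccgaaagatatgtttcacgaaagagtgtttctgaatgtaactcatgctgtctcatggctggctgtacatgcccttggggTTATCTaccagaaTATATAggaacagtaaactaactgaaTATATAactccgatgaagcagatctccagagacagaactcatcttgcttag

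The windows of Prl7a1 and Prl7a2 were identical at 78.91% of 294 aligned bases, and those of Prl8a8 and Prl8a9 at 82.19% of 292. Over all pairs of Prl windows, identity ran from 64.86% (Prl8a1 and Prl7a2) to 84.75% (Prl8a6 and Prl8a8). Both Prl7a genes had TATATA followed after 2 bases by AGGT, with the first base at -29 in Prl7a1 and -31 in Prl7a2, counted from the start site. TATATA began at -27 in both Prl8a9 and Prl8a8, a second copy began at -1 in Prl8a8, and neither gene had AGGT after it. AP-1 matches stood in Prl7a1, Prl7a2 and Prl8a9 and none in Prl8a8, while GATA matches stood in Prl7a1 and Prl8a8 and none in Prl7a2 or Prl8a9. So neither motif stood only in the high gene in both pairs.

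4 further Prl genes were high by more than 6. Prl2a1 read 4.06, 4.36 and 11.73 on the labelled-null arrays, against 4.08, 4.02 and 4.24 on the wild-type arrays. Prl4a1, a hormone that binds uterine natural killer cells, read 5.89, 6.04 and 13.19 on the labelled-null arrays, against 5.79, 5.26 and 5.77 on the wild-type arrays. Prl7d1, known as proliferin-related protein and an inhibitor of vessel growth, read 3.70, 4.02 and 10.95 on the labelled-null arrays, against 3.76, 3.00 and 3.93 on the wild-type arrays. For these 3 genes labelled-null replicate 3 was 7.58, 7.44 and 7.27 above the mean of the others, and the other 5 arrays overlapped between genotypes except for Prl4a1, for which labelled-null replicates 1 and 2 were both above all 3 wild-type arrays, the lower of them by 0.09. Prl2b1 had both of its probe sets high, by 6.69 and 6.07. The first of these read 5.40, 5.67 and 11.87 on the labelled-null arrays, against 4.90, 4.88 and 5.07 on the wild-type arrays, without overlap between the genotypes.

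Prl8a2 differed from the other Prl genes in that it varied between the remaining arrays. It codes for decidual prolactin-related protein, a product of the decidua. It read 5.42, 7.72 and 9.998 on the labelled-null arrays, against 5.52, 4.41 and 6.87 on the wild-type arrays. Labelled-null replicate 3 was highest, then labelled-null replicate 2 and wild-type replicate 3, and wild-type replicate 2 was lowest, so the genotypes overlapped. The other 5 arrays spanned 3.32 (SD 1.31), where the next widest spans among the members were 1.25 for Serpinb9b and 1.22 for Prl7a1. Prl8a1, of the prolactin-like protein C group, read 5.41, 5.80 and 8.61 on the labelled-null arrays, against 5.48, 5.58 and 5.74 on the wild-type arrays, and its second set deviated by 0.59. Prl5a1 was the high Prl gene nearest to the threshold, at 3.81, 4.52 and 5.37 on the labelled-null arrays, against 4.22, 4.41 and 4.33 on the wild-type arrays.

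The 8 Prl genes that were not high on labelled-null replicate 3 deviated by -0.36 to 0.56. They were Prl8a6 (0.56), Prl7a2 (0.06), Prl7c1 (0.02), Prl7b1 (-0.02), Prl3c1 (-0.05), Prl8a8 (-0.18), Prl6a1 (-0.24) and Prl3a1 (-0.36). Prl3c1 is a hormone of the decidua, and it read 3.19, 3.11 and 3.11 on the labelled-null arrays, against 3.09, 3.42 and 2.97 on the wild-type arrays. No probe set of a single symbol was found for the placental lactogens Prl3b1, Prl3d1, Prl3d2 and Prl3d3 or for the proliferins Prl2c1, Prl2c2, Prl2c3 and Prl2c5, so these giant cell hormones are not among the members.

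The 17 measured Prl genes lie on chromosome 13 with high and low genes mixed. In the order Prl3c1, Prl3a1, Prl6a1, Prl8a2, Prl2b1, Prl8a6, Prl8a8, Prl8a9, Prl8a1, Prl7b1, Prl7a1, Prl7a2, Prl7d1, Prl7c1, Prl2a1, Prl4a1 and Prl5a1, the state changed from high to low or back at 9 of the 16 steps between neighbours. Prolactin itself, at the edge of the cluster, read 4.10, 3.83 and 4.08 on the labelled-null arrays, against 3.97, 3.71 and 4.18 on the wild-type arrays, and 0 of the 6 nearest measured genes outside the cluster were over 1 on labelled-null replicate 3. The 8 cathepsins, also on chromosome 13, had 2 high genes and 3 changes at 7 steps. All 4 Serpinb9 genes on chromosome 13 were high, and on chromosome 7 only Psg19 of the 7 Psg genes was high. Of the 6 other measured genes that lie inside the clusters, 0 were over 1 on labelled-null replicate 3, with deviations of -0.48 to 0.51. Of the 24 genes that flank the 4 clusters, 5 were over 1, against 0.968% of all probe sets on this array. Tpbpa, a trophoblast marker, and Ctla2a, a cathepsin inhibitor, lie beside the cathepsins and deviated by 1.47 and 1.98. Serpinb9 and Serpinb6b lie beside the Serpinb9 genes and deviated by 1.66 and 2.57, and Pglyrp1, a peptidoglycan recognition protein gene, lies beside the Psg genes and deviated by 1.02.

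**Figure D3:**
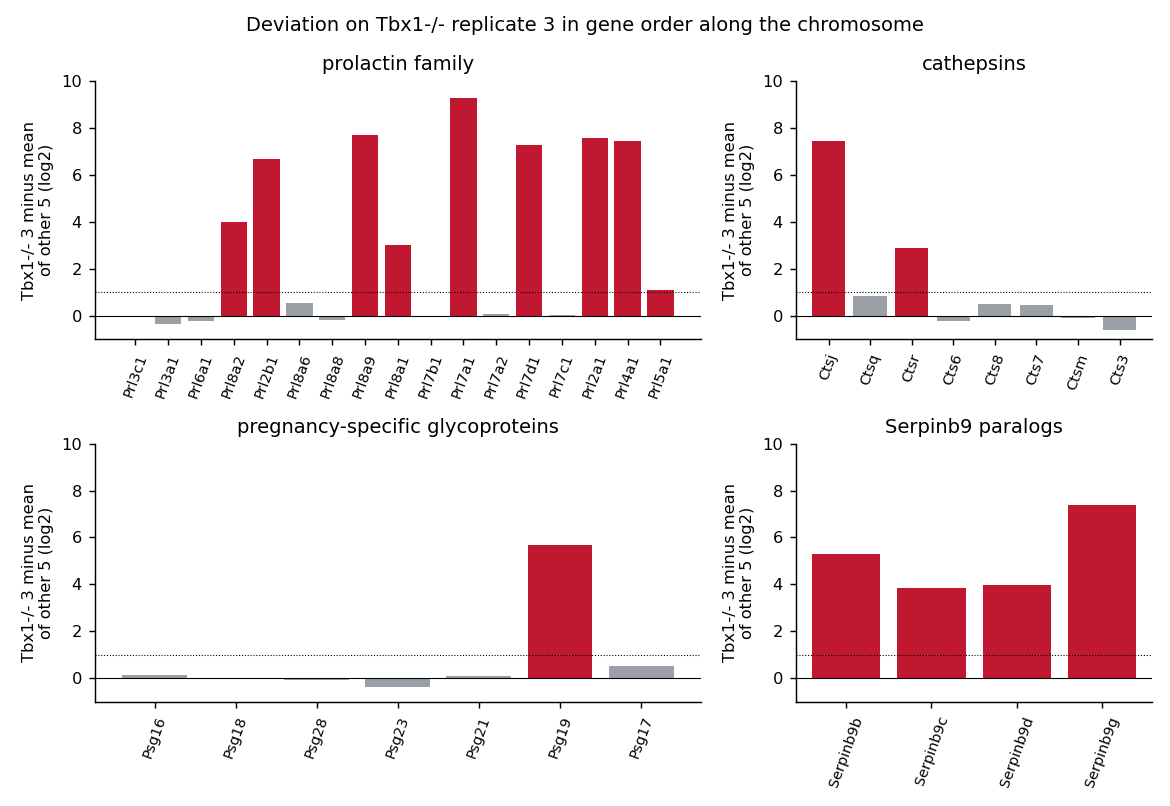
Value on labelled-null replicate 3 minus the mean of the other 5 arrays (y axis, log2) for the measured genes of the 4 clusters in their order along the chromosome (x axis, gene order and not distance). The dotted line marks 1. High and low genes are mixed in the Prl cluster, 2 of 8 cathepsins and 1 of 7 Psg genes are over the line, and all 4 Serpinb9 genes are.

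Among the cathepsins, Ctsj carried most of the signal. It read 3.53, 3.45 and 10.78 on the labelled-null arrays, against 3.52, 3.00 and 3.25 on the wild-type arrays, a deviation of 7.43 for labelled-null replicate 3. Ctsr read 4.84, 4.50 and 7.60 on the labelled-null arrays, against 4.45, 4.71 and 5.04 on the wild-type arrays, a deviation of 2.89. Ctsq, a marker of sinusoidal giant cells in the mouse placenta, stood just under the threshold, at 3.85, 3.80 and 4.56 on the labelled-null arrays, against 3.61, 3.81 and 3.59 on the wild-type arrays. The other 5 were not high, with Cts8 at 0.52, Cts7 at 0.47, Ctsm at -0.09, Cts6 at -0.23 and Cts3 at -0.61. The start regions of Ctsj and Ctsq, neighbours with deviations of 7.43 and 0.83, are shown in the same way for comparison.
Ctsj (chr13:61005876-61006175, minus strand): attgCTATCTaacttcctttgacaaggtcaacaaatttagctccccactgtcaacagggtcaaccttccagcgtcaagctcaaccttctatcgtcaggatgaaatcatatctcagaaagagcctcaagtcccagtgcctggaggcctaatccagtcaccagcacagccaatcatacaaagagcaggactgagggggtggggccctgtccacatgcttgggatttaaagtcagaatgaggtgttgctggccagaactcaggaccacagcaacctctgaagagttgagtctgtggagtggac
Ctsq (chr13:61040548-61040847, minus strand): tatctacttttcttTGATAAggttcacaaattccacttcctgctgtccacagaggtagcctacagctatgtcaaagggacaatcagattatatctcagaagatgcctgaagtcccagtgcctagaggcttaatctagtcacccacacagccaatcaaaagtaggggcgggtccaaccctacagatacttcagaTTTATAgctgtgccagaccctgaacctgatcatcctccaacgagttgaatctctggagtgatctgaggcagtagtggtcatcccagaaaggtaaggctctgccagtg

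The 2 cathepsin windows were identical at 79.37% of 252 aligned bases. Over all pairs of cathepsin windows, identity ran from 68.05% (Cts6 and Cts8) to 92.88% (Ctsm and Cts3). Ctsj and Ctsq each held 1 GATA match, at -246 in Ctsj and -236 in Ctsq, and Ctsq alone had TATAAA, on the reverse strand. Neither had TATATA or an AP-1 match.

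All measured Serpinb9 paralogs were high on labelled-null replicate 3. Serpinb9g read 2.81, 3.05 and 10.29 on the labelled-null arrays, against 2.85, 2.92 and 2.84 on the wild-type arrays, a deviation of 7.40. Serpinb9b read 3.62, 4.87 and 9.73 on the labelled-null arrays, against 4.47, 4.31 and 4.81 on the wild-type arrays, a deviation of 5.31. The other 2 genes followed with smaller values. Serpinb9d read 3.90, 3.80 and 7.92 on the labelled-null arrays, against 3.85, 4.33 and 3.86 on the wild-type arrays, and Serpinb9c deviated by 3.86 and 1.41 on its 2 probe sets. Labelled-null replicates 1 and 2 overlapped with the wild-type arrays on every Serpinb9 set but the second set of Serpinb9c, on which they read 4.58 and 4.57, against 4.69 to 4.86 on the wild-type arrays. The promoter windows of Serpinb9d and Serpinb9g were identical at 93.2% of 294 aligned bases. Serpinb9e and Serpinb9f had no probe set of their own.

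The pregnancy-specific glycoproteins are secreted proteins of the immunoglobulin superfamily, related to the Ceacam adhesion molecules. Psg19 was the only member of this family over 1, with all 3 of its probe sets. The brightest read 2.63, 2.54 and 8.29 on the labelled-null arrays, against 2.51, 2.69 and 2.66 on the wild-type arrays, a deviation of 5.68, and the others deviated by 1.84 and 1.00. The last of these was the member just inside the threshold of 1, followed by Prl5a1 at 1.12, and the members just outside were Ctsq at 0.83 and the second set of Prl8a1 at 0.59. The other Psg genes deviated by -0.38 (Psg23) to 0.52 (Psg17). Psg28 and Psg23 were not dim, nor was the brightest set of Psg21, at 6.19 to 6.74. Psg28 read 7.66, 7.67 and 7.57 on the labelled-null arrays, against 7.62, 7.65 and 7.63 on the wild-type arrays. So this 1 probe set gave a signal of about the same height on all 6 arrays. Whether that signal came from Psg28 transcripts was not tested.

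The X-linked homeobox genes Rhox6 and Rhox9, which are used in placenta and gonads, were both high. Rhox9 read 5.62, 5.53 and 11.69 on the labelled-null arrays, against 5.77, 5.51 and 5.60 on the wild-type arrays. Rhox6 read 6.31, 6.16 and 10.88 on the labelled-null arrays, against 6.32, 5.92 and 6.06 on the wild-type arrays. Deviations on labelled-null replicate 3 were 6.09 and 4.73, and the other 5 arrays lay within 0.26 of each other for Rhox9 and 0.40 for Rhox6. Trap1a, which codes for the tumour antigen P1A of testis and placenta and also lies on the X chromosome, read 3.88, 3.62 and 10.11 on the labelled-null arrays, against 3.82, 4.08 and 4.22 on the wild-type arrays.

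Cyp11a1 on chromosome 9 codes for the enzyme that cleaves the cholesterol side chain to give pregnenolone, the entry step of steroid synthesis. Its leading probe set read 4.53, 4.72 and 11.80 on the labelled-null arrays, against 4.74, 4.53 and 4.50 on the wild-type arrays, a deviation of 7.19, while its other 2 sets deviated by 0.05 and -0.20. Slc6a2, which codes for the noradrenaline transporter, read 4.99, 5.08 and 11.76 on its leading set on the labelled-null arrays, against 4.58, 4.84 and 4.72 on the wild-type arrays. Labelled-null replicate 3 was 6.92 above the mean of the others on that set, 3.57 on a second set and 0.45 on both remaining sets. Over the 10 member genes with several probe sets, all sets were over 1 in 3 genes, some in 4 and none in 3, so probe sets of 1 gene disagreed in 4 cases.

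The comparison of genotypes was fitted with limma on all 45037 probe sets, with Benjamini-Hochberg adjustment and a threshold of 0.05. With all 6 arrays, 0 of the 57 member probe sets passed in either direction, against 0% of all probe sets higher and 0.00444% lower on the labelled-null arrays. Before adjustment, 4 members were higher and 0 lower at p under 0.05, against 1.35% and 1.2% of all probe sets. These were 1 set each of Cts7 and Cts8 and both dim sets of Prl7a1, none of which was over 1 on labelled-null replicate 3. This count includes the array the members were chosen on, so nothing is read from it. Without that array the 4 sets had limma unadjusted p of 0.0778 (Cts8) to 0.167 (Cts7). The median difference over the members was 0.32, and 49 of 57 had the higher mean on the labelled-null arrays, against 46.6% of all probe sets, a count that includes the array the members were chosen on. For Prl7a1 the difference was largest, 3.65 (SE 2.01, unadjusted p = 0.104, adjusted p = 1.00), followed by Prl8a9 at 2.78 (SE 1.71) and Prl4a1 at 2.76 (SE 1.64). These large means with large errors came from 1 array of 3.

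Without labelled-null replicate 3, the array the members were chosen on, 0 of 57 members passed, against 0.0133% of all probe sets higher and 0.0111% lower. Before adjustment, 2 were higher and 0 lower at p under 0.05, against 1.62% and 1.12% of all. These were the first set of Prl2b1, with a difference of 0.58 (limma, SE 0.16, unadjusted p = 0.00516), and the bright set of Prl7a1, with 0.68 (limma, SE 0.21, unadjusted p = 0.0114). The median difference was 0.10, and 38 of 57 had the higher mean on the labelled-null arrays, against 48.4% of all probe sets. With values under 4 raised to 4 this count was 22 of 57, and the 21 sets under 4 on all 5 arrays were then tied. So the count of 38 rests in part on dim values. Prl8a2 differed by 0.97 (SE 0.75, limma unadjusted p = 0.228) and Prl4a1 by 0.35 (SE 0.19), neither past the threshold. Labelled-null replicates 1 and 2 were both above all 3 wild-type arrays for 10 of the 57 probe sets, against 7.17% of all probe sets, and both below for 2, against 7.23%. The 10 were sets of Prl2b1 and Prl7a1 (5 in all), Prl4a1, Slc6a2, Cts8, Prl3a1 and Psg28, by gaps of 0.0089 to 0.33, and several share a gene, so they are not independent. All 3 labelled-null arrays were above all wild-type arrays for 8 of 57, against 3.08% of all probe sets, but that count uses labelled-null replicate 3, on which the members were chosen, and nothing is read from it.

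**Figure D4:**
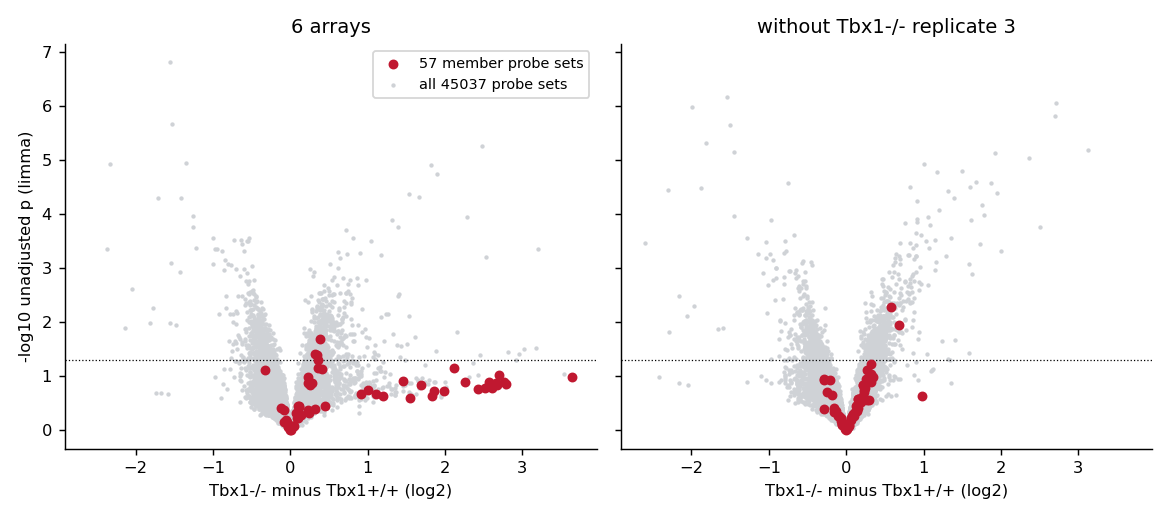
Difference between genotypes (x axis, labelled null minus wild type, log2) against -log10 of the unadjusted limma p (y axis) for the 57 member probe sets and all 45037, with 6 arrays and without labelled-null replicate 3. With 6 arrays the members reach 3.65, and without that array the largest member difference is 0.97, for Prl8a2.

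Genes outside the membership rule were taken from 14 lists, of related families and pathways and of cell type markers, and 159 of their 203 genes had a probe set. In limma with 6 arrays, 0 of the 159 passed in either direction. Before adjustment, 11 were higher and 7 lower at p under 0.05, against 1.35% and 1.2% of all probe sets, and 5 of the 7 lower ones were yolk sac endoderm markers. The steroid synthesis list had 4 of 13 genes over 1 on labelled-null replicate 3, against 0.968% of all probe sets. Star, which carries cholesterol into the mitochondrion where the Cyp11a1 enzyme works, read 6.98, 6.84 and 12.10 on the labelled-null arrays, against 7.10, 7.09 and 7.04 on the wild-type arrays. Cyp17a1, which makes androgen precursors, read 3.55, 3.80 and 8.94 on the labelled-null arrays, against 3.90, 3.78 and 3.92 on the wild-type arrays. Hsd17b2, which inactivates estradiol and testosterone, read 5.32, 5.44 and 10.16 on the labelled-null arrays, against 5.20, 5.33 and 5.81 on the wild-type arrays. The remaining 9 genes of this list were not over 1, and 0 of 6 other monoamine transport genes were. Rhox5, the founding gene of the Rhox cluster, deviated by 3.23, and of the cathepsins outside the placental cluster 2 of 14 were over 1, Ctsh at 2.80 and Ctsg at 2.13.

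The list of granzymes, the proteases of killer lymphocytes, and perforin held genes whose pattern over the arrays resembled Prl8a2. Over 1 on labelled-null replicate 3 were 5 of 11 genes and on labelled-null replicate 2 there were 4, against 0 on every other array. The remaining genes of the list did not follow, with deviations on labelled-null replicate 3 from -0.22 (the perforin gene Prf1) to 0.60 (Gzmb). Gzmd read 3.35, 5.47 and 9.23 on the labelled-null arrays, against 3.16, 2.61 and 3.25 on the wild-type arrays. Gzmg, like Gzmd a granzyme of uterine natural killer cells, read 4.83, 7.36 and 10.81 on the labelled-null arrays, against 5.72, 3.24 and 5.27 on the wild-type arrays. Ctla2a, whose product resembles a cathepsin propeptide and inhibits cathepsin L, read 8.75, 9.76 and 10.91 on the labelled-null arrays, against 9.17, 8.18 and 8.80 on the wild-type arrays. For Prl8a2, Gzmd, Gzmg and Ctla2a alike, labelled-null replicate 3 was highest, labelled-null replicate 2 next and wild-type replicate 2 lowest. This order was not particular to them, since Prl2a1, Prl4a1, Prl7d1 and the first set of Prl2b1 had it too. On those sets the other 5 arrays spanned 0.34 to 1.02, against 3.32 for Prl8a2. Labelled-null replicate 2 was also the next highest array on the remaining high Prl sets. Prl8a2 and Gzmd parted on wild-type replicate 3, where Prl8a2 read 6.87 and Gzmd 3.25, beside 5.52 and 3.16 on wild-type replicate 1.

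**Figure D5:**
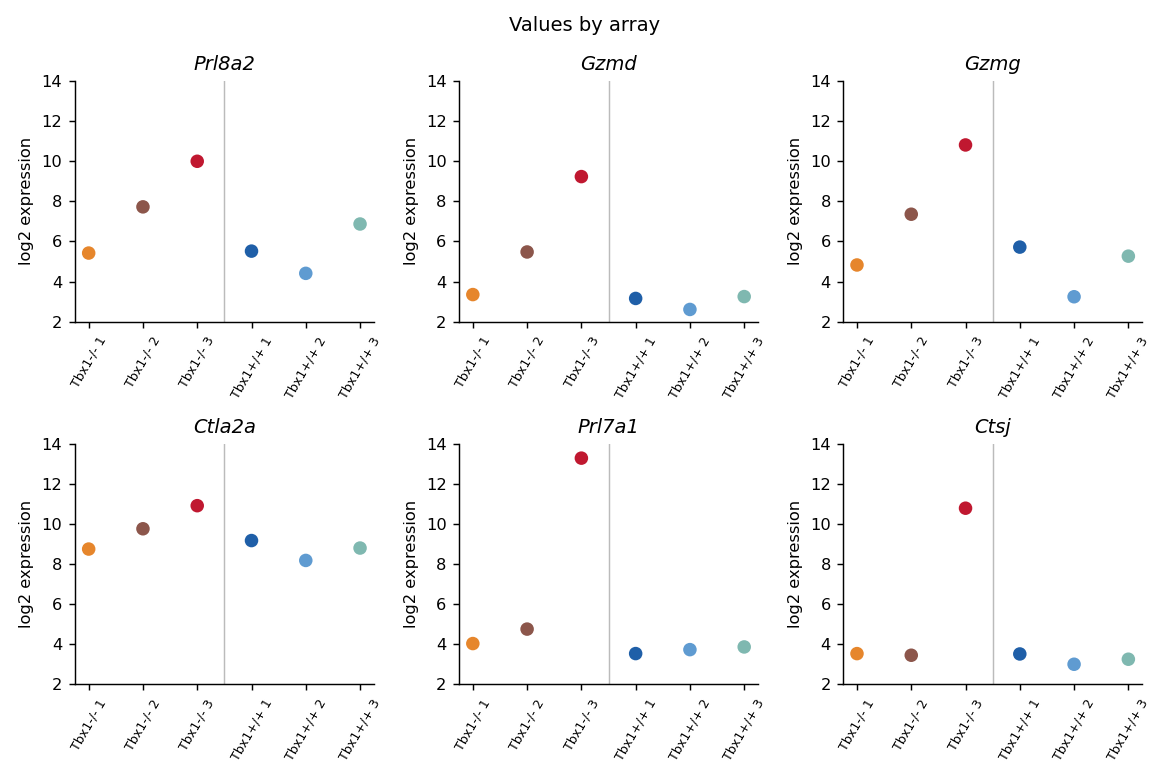
Log2 expression (y axis) on each of the 6 arrays (x axis) for the genes named in the panel titles, with labelled-null arrays left of the vertical line and wild-type arrays right of it. Prl8a2 and the granzymes are high on labelled-null replicate 3 and next on labelled-null replicate 2. Prl7a1 has the same order of these arrays but reads only 4.76 on labelled-null replicate 2.

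Markers of trophoblast, decidua, yolk sac and blood were set beside these values, and their part in the result was not tested. Of 22 trophoblast markers with a probe set, 5 were over 1 on labelled-null replicate 3 and 0 on any other array. These 5 were Plac8 at 3.55, Plac1 at 2.82, Eomes at 1.61, Tpbpa at 1.47 and Esx1 at 1.07. Of all probe sets, 0.968% were over 1 on labelled-null replicate 3. Tpbpa, which marks the spongiotrophoblast, read 3.48, 3.73 and 5.01 on the labelled-null arrays, against 3.64, 3.49 and 3.35 on the wild-type arrays. The summed level of the list, on the linear scale, ranged from 28758 to 31192 on the labelled-null arrays and from 24581 to 27844 on the wild-type arrays. Labelled-null replicate 3 was not the highest, at 28933, against 31192 on labelled-null replicate 1. Most of the sum came from genes that were bright on all 6 arrays, such as Mest, Peg10 and the glucose transporter gene Slc2a3, which read 12.91, 12.61 and 11.91 on the labelled-null arrays, against 12.01, 11.82 and 11.98 on the wild-type arrays. Of 15 decidua markers 3 were over 1 on labelled-null replicate 3, led by the activin antagonist Fst at 2.90. This list summed to 2100, 2113 and 3279 on labelled-null replicates 1, 2 and 3, and to 1816 to 2064 on the wild-type arrays. Yolk sac endoderm markers had 0 of 18 over 1 on labelled-null replicate 3 but 5 on wild-type replicate 2 and 1 on wild-type replicate 3. The shares of all probe sets on these wild-type arrays were 0.06% and 0.0289%. Of 9 primitive erythroid markers, 0 were over 1 on labelled-null replicate 3. The 15 arch markers summed to 38639 to 40470 on the labelled-null arrays and to 38194 to 41396 on the wild-type arrays.

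Promoter windows were available for 34 of the 41 member genes, 16 of them high on labelled-null replicate 3 and 18 not. TATATA stood in 13 of 15 Prl windows, and in all 8 high Prl genes that had a window, against 5.94% of all 27025 windows. TATATA followed after 2 bases by AGGT, a pattern chosen after the windows had been seen, stood in 7 Prl windows, those of Prl2b1, Prl4a1, Prl7a1 and Prl7d1, which were high, and of Prl3c1, Prl6a1 and Prl7a2, which were not, against 0.0888% of all windows. The windows of duplicated genes share ancestry, so these counts are not independent. GATA matches stood in 7 of 16 high and 13 of 18 other member windows, against 30.2% of all windows, and AP-1 matches in 3 and 4, against 7.93%. TATAAA stood in 0 of 16 high and 6 of 18 other windows, against 14.2%, and the E-box motif CANNTG in 8 and 15, against 72.1%. A match is a string of letters in this window and no evidence of binding.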

How the data were processed

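Per the submitters' processing notes, the deposited values were made with GCRMA, a method that subtracts a background modelled from the probes, evens out the arrays and combines the probes of a set (version not given in the sources used here). The deposited unit, log2 expression per probe set, was read from the range of the values. Normalization between arrays holds their overall distributions equal, and GCRMA compresses differences near background. No scanner files were used.

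64 control probe sets were left out of 45101. Of the remaining 45037, 34945 had 1 gene symbol, 932 several and 9160 none in the annotation, and all 41 member genes matched the RefSeq gene table by gene ID. A deviation is the value on 1 array minus the mean of the other 5. The groups were compared with limma 3.58.1 in R 4.3.3 (lmFit, eBayes with an intensity trend, genotype alone, no filter), with Benjamini-Hochberg adjustment over all probe sets. On 20 simulated tables of 45037 probe sets with 200 changed, the 6-array fit called 66.4% of those changed by 1 and 95.3% of those changed by 2, and 3.65% of its calls were false. These tables had independent normal spread and the same shift on all 3 labelled-null arrays. So the shares do not hold for a rise on 1 array, as the members had. The number of arrays limits the precision. Figures and tables used Python 3.11.15, and windows were aligned with Biopython 1.88.

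The members and the gene lists were chosen with earlier results of these data known. Values on every array are given for the probe set with the largest deviation of up to 12 Prl, 6 cathepsin, 6 Psg and 6 Serpinb9 genes and of Rhox6, Rhox9, Cyp11a1, Slc6a2 and Trap1a. In each list outside the rule the 3 genes with the largest deviation of any array could be named. Beside a cluster the 3 nearest measured genes on either side could be named. Eomes, Tpbpa, Esx1, Alx4, Mest, Peg10, Slc2a3, Gzmb and Prf1 as list members, and second probe sets, were named after their values were seen. Alternatives tried were a floor at 4, another quantile normalization, centring on the median, 1 probe set per gene, no _s_at or _x_at sets, the median of the other arrays, a threshold of 2, filters, a replicate block and leaving out each array. Leaving out labelled-null replicate 3 from the deviations was chosen after seeing the data.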

Additional observations from a re-analysis of the deposited data

Results flagged for a closer look

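4 probe sets are assigned by the annotation to several genes of the same families and are therefore not members. 3 of them read more than 1 above the highest wild-type array on labelled-null replicate 3. The fourth, shared by Psg21 and Psg23, was nearly flat, at 3.07, 3.34 and 3.34 on the labelled-null arrays, against 3.12, 3.19 and 3.07 on the wild-type arrays. The brightest, shared by Gm7040 and the proliferins Prl2c2, Prl2c3 and Prl2c4, which are angiogenic hormones of trophoblast giant cells, read 8.72, 8.86 and 14.50 on the labelled-null arrays, against 8.12, 8.19 and 8.49 on the wild-type arrays, and labelled-null replicate 3 was 6.01 above the highest wild-type array. The second proliferin set, which also covers Prl2c5, read 6.35, 6.02 and 9.67 on the labelled-null arrays, against 5.62, 5.16 and 6.05 on the wild-type arrays, 3.61 above the highest wild-type array. The Serpinb9 set, shared by Serpinb9e, Serpinb9f, Serpinb9g and Serpinb9h, read 3.13, 3.92 and 9.96 on the labelled-null arrays, against 3.42, 4.12 and 3.63 on the wild-type arrays, 5.85 above the highest wild-type array. Which of the genes named gave these signals cannot be told apart by the probe sets.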

How the results depend on the processing

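On labelled-null replicate 3, 24 to 26 of the 57 member probe sets were over 1 with the floor, the quantile normalization, the centring or the median of the other arrays. With 1 probe set per gene 21 of 41 were over 1, and without _s_at and _x_at sets 24 of 49. The 1 set kept per gene was that with the highest mean over the 6 arrays. That mean includes labelled-null replicate 3, which thus helped to pick the sets, so this setting is no independent check. At a threshold of 2, 22 of 57 were over 2. Filters, the replicate block and leaving out arrays were not applied to this count. The median deviation of 0.56 was 1.12 with 1 probe set per gene and 0.83 without _s_at and _x_at sets. Raising values under 4 to 4 lowered the largest deviations of dim genes, to 6.85 for Prl8a9, 6.78 for Ctsj, 6.29 for Serpinb9g and 4.29 for Psg19. In limma, 0 members passed under every setting of both fits, including each array left out (0 to 0). Labels number the replicates 1 to 3 in both genotypes. Deviations of same-numbered arrays correlated at 0.28, 0.07 and 0.12 and those of other pairs at -0.19 to 0.10. 5 of the 6 arrays correlated best with the array of their own number, the exception being wild-type replicate 2. The second of the 3 correlations is under 0.1, so the numbers were not taken to pair the samples. With the replicate block, 0 members passed, 1 listed gene passed against 0 without it, and 11 of all probe sets passed against 2; without labelled-null replicate 3 these were 83 against 11. Over all probe sets, leaving out 1 array gave 0 to 11 calls with 6 arrays and 0 to 121 without labelled-null replicate 3, and the other settings 0 to 3 and 1 to 22. Prl8a2 was reversed in direction, to -0.18 from 0.97, when labelled-null replicate 2 was also left out, which leaves 1 labelled-null array whose spread is assumed to be like that of the wild type; its other such values reached 2.13. Its 6-array difference of 2.12 ranged from 0.97 to 3.26, that of Prl7a1 from 0.68 to 5.31 and that of Prl4a1 from 0.35 to 4.01, lowest without labelled-null replicate 3. Dim values, 21 of 57 sets under 4 on the other 5 arrays, limit how large a deviation can be read.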

Other observations

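1 of the Ceacam genes, relatives of the Psg family, was low on another array. Ceacam1, an adhesion molecule of epithelium and vessels, read 4.51, 7.90 and 7.36 on the labelled-null arrays, against 7.14, 7.52 and 7.81 on the wild-type arrays, so labelled-null replicate 1 alone was low, by 3.03 below the mean of the others. The other 10 Ceacam genes with a probe set deviated by -0.27 to 0.20 on that array. Of the 11 Ceacam genes with a probe set, 1 was over 1 on labelled-null replicate 3, against 0.968% of all probe sets. The 20 largest deviations on labelled-null replicate 3 included the shared Serpinb9 set at 6.32 and the brighter proliferin set at 6.02. Among the others that belong to no member, the annotation named Tfpi, the inhibitor of tissue factor, at 6.57, and 1600025M17Rik at 5.92. It named no gene for 3 probe sets at 8.52, 8.07 and 6.99. Tfpi and 1600025M17Rik were named after their values were seen.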
